A study of Mus musculus with 22 samples.

Results

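The bicarbonate transporters and carbonic anhydrases described here are 8 genes of the 33964 in the count files, taken by name: the bicarbonate transporters Slc4a2, Slc4a4, Slc4a5 and Slc4a10, and the carbonic anhydrases Car2, Car4, Car12 and Car14. Each gene stands for the Ensembl transcript of it that had the highest total count. RNA of choroid plexus (ChP), the epithelial tissue of the brain ventricles that makes cerebrospinal fluid, was sequenced in 14 pools of mice, 2 pools (A and B) for each of 7 groups. In the conditional model, 3-month-old Otx2 lox/lox mice of strain S129 received Cre-Tat, a recombinase that enters cells and removes the DNA between lox sites, or vehicle into the lateral ventricles, and ChP of the lateral ventricles (LV) and the fourth ventricle (4V) was dissected after 15 days, from 5 mice a pool for Cre-Tat and 4 for vehicle. All mice of this model carried the lox alleles, vehicle included, and the injection was made only in the lateral ventricles. In the constitutive model of strain B6D2, 4V ChP came from wildtype, Otx2 (+/-) and Otx2 (+/AA) mice. The wildtype mice and the Otx2 (+/-) mice, which the study describes as heterozygous for a GFP allele, were 3 months old. The study names 5 wildtype and 4 Otx2 (+/-) mice with duplicate samples, and does not say clearly whether these numbers are for each pool. Age and pool size of the Otx2 (+/AA) mice are not given in the sources used here. The study describes the Otx2 (+/-) mice as a constitutive mutant, so that ChP is not the only site of that allele.

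In the ChP epithelium, carbonic anhydrases turn carbon dioxide and water into bicarbonate and protons, and transporters of the SLC4 family move bicarbonate across the membranes facing blood and ventricle. Slc4a2 exchanges chloride for bicarbonate and Slc4a10 carries bicarbonate with sodium, both on the blood side, while Slc4a5 is a sodium bicarbonate cotransporter of the ventricular side. Car2 works in the cytosol, Car12 and Car14 span the membrane with the enzyme outside the cell, and Car4 is tethered to the outer face of the membrane. Movement of bicarbonate and of sodium through these proteins is part of how the tissue secretes cerebrospinal fluid.

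All coordinates are of GRCm38 (mm10). The counted transcripts were Slc4a2-201 (ENSMUST00000080067, chr5:24425232-24440950, plus strand, 23 exons), Slc4a4-207 (ENSMUST00000148750, chr5:88886818-89239653, plus strand, 26 exons), Slc4a5-201 (ENSMUST00000039212, chr6:83237375-83304944, plus strand, 25 exons) and Slc4a10-202 (ENSMUST00000102735, chr2:62046462-62326730, plus strand, 26 exons). For the enzymes they were Car2-201 (ENSMUST00000029078, chr3:14886428-14900770, plus strand, 7 exons), Car4-201 (ENSMUST00000103194, chr11:84957788-84966044, plus strand, 8 exons), Car12-201 (ENSMUST00000071889, chr9:66713686-66766845, plus strand, 11 exons) and Car14-201 (ENSMUST00000036181, chr3:95897768-95904691, minus strand, 11 exons). Exons of Slc4a2-201 share 694 of 4179 bases with Fastk, and exons of Car14-201 share 445 of 1709 bases with Aph1a, each on the opposite strand. The strand used in counting is not stated, so that reads of Fastk and Aph1a can be among these counts.

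The 250 bases before the start site are shown for the 4 genes whose RefSeq start lies within 6 bases of the start of the counted transcript and on which the results turn, namely Slc4a2, Slc4a5 and Car12, which fell in at least 1 comparison of Cre-Tat with vehicle, and Car14, which did not pass the test in any. Sequences are from RefSeq (GRCm38.p6), 5′ to 3′ on the strand of the gene, with TAATCC, the core letters that OTX2 and other homeoproteins of its class bind, in capitals.
Slc4a2 (chr5:24424982-24425231, plus strand): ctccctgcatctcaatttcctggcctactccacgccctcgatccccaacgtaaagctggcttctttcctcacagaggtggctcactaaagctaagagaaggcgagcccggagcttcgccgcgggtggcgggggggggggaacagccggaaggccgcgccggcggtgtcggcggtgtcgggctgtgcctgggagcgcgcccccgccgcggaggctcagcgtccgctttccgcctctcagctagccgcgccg
Slc4a5 (chr6:83237125-83237374, plus strand): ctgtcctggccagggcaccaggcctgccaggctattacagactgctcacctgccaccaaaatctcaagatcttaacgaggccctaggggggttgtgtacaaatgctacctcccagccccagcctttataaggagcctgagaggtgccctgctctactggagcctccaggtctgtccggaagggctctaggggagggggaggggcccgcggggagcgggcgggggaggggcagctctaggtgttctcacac
Car12 (chr9:66713436-66713685, plus strand): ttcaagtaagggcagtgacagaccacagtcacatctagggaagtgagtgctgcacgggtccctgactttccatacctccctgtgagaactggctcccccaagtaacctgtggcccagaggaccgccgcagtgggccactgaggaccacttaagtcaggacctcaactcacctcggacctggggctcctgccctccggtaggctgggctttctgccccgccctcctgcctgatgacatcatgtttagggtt
Car14 (chr3:95904686-95904935, minus strand): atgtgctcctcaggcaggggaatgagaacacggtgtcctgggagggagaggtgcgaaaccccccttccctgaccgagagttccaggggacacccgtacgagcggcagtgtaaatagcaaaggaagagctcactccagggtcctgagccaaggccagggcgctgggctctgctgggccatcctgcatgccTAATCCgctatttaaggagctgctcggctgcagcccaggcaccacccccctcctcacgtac

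RefSeq windows of 250 bases before to 50 after a start were at hand for 7 of the 8 genes (10 windows, Car2 not among them). TAATCC was searched on both strands, and 1 of the 10 windows held it, that of Car14, with its first base 61 bases before the start. It was present in 7.06% of all 32851 windows. Of the sequences printed above, that of Slc4a2 has the most G and C (69.2%) and the most CpG (28), against 62.8% and 6 in Slc4a5, 59.2% and 6 in Car12, and 62.0% and 10 in Car14, with medians of 52.4% and 6 over the same bases of all windows. A match in letters is a description of these windows and shows no binding.

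Total counts over all transcripts were 22750019 to 50088408 a pool. Overlapping transcripts of a gene had near equal counts, as Car12-201 and Car12-202 with 25920 and 25905 in vehicle LV pool A. These totals can therefore hold a read more than once. Over the transcripts that stand for genes they were 10555040 to 24826597. Of the 16 files from the Cre-Tat experiment, 14 carry a library number other than that of the sample they are attached to. Chi-square per degree of freedom between the technical runs of a pool was 1.00 to 1.03 when runs were joined by library number and 13.2 to 20.5 as attached, and they were joined by number. Otx2 served as a check of the labels and was not lower in the pools labelled as knockdown: it had 385 and 469 CPM (counts per 1000000 of the normalized library) in vehicle LV and 1236 and 1024 in Cre-Tat LV. In 4V ChP the values were 386 and 393 for vehicle, 1202 and 1222 for Cre-Tat, 361 and 303 for wildtype, 1027 and 886 for Otx2 (+/-), and 339 and 356 for Otx2 (+/AA). This count covers the whole transcript and does not isolate the deleted part, so it checks no deletion, and groups are called by their labels throughout, with every direction below resting on those labels. The study states that qPCR for Otx2 was run on a small part of each ChP of the conditional model. It also reports fewer reads over an Otx2 exon in the knockdown groups of both models.

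Levels of different genes are compared as CPM per kilobase of the transcript. By their medians over the 14 pools, 6 of the 8 genes lay between 122 (Slc4a5) and 335 (Slc4a10), while Slc4a4 (0.939) and Car4 (1.37) were counted with few reads. In the vehicle pools of 4V ChP, Slc4a10 was highest at 360 and 369 CPM per kilobase, followed by Car12 at 287 and 321. Slc4a2 (223 and 243) and Car2 (226 and 232) overlapped, and Car14 (180 and 208) and Slc4a5 (143 and 157) came after them, each apart from its neighbours. Slc4a4, a sodium bicarbonate cotransporter best known from kidney, reached only 1.16 and 1.32, and Car4 only 0.354 and 0.882. Slc4a10 had the highest group mean of the 8 genes in all 7 groups, although its pools overlapped those of Car12 in LV ChP, in vehicle and in Cre-Tat. The mean of Slc4a2 was the third from the top in both vehicle groups and the fifth in both Cre-Tat groups, below Car14 and Car2, where in LV ChP its pools (137 and 166) overlapped those of Car2 (158 and 165). In vehicle LV ChP the pools of Slc4a2 (238 and 244) overlapped those of Car14 (228 and 242).

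**Figure D1:**
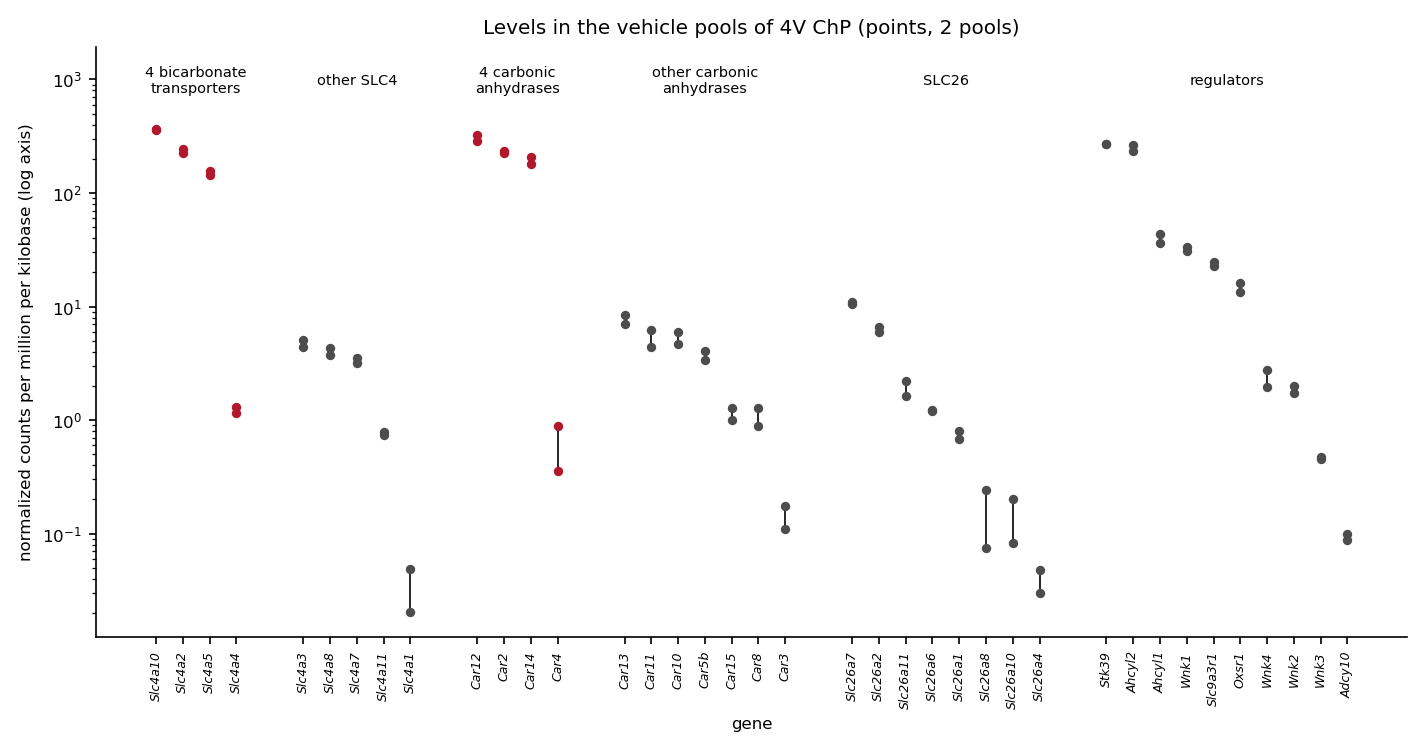
Levels of the 8 genes (red) and of other genes of bicarbonate transport (grey) in both vehicle pools of 4V ChP, as normalized CPM per kilobase on a log axis, each point a pool; genes without a count in 1 of these pools are left out. Slc4a10, Slc4a2, Slc4a5, Car12, Car2 and Car14 stand above 140, as do the regulators Stk39 and Ahcyl2, while Slc4a4 and Car4 lie with the low genes near 1.

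The comparison of Cre-Tat with vehicle asks how these genes stand in ChP after the conditional knockdown of Otx2 in the adult. In 4V ChP, 4 of the 8 genes were lower in the pools labelled Cre-Tat and none was higher: the exchanger Slc4a2, the cotransporter Slc4a5, the cytosolic enzyme Car2 and the membrane enzyme Car12 (edgeR quasi-likelihood test, Benjamini-Hochberg adjusted over all genes, threshold 0.05). Among all 14537 genes tested, 10.7% were called. All 8 genes passed the filter on low counts in every comparison, and their median log2 fold change in 4V ChP was −0.52, against 0.01 over all genes. In LV ChP, 2 of the 8 genes were lower and none higher, Slc4a2 and Slc4a5, where 3.24% of 14990 genes were called, and the median of the 8 was −0.25 against 0.00 over all genes.

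**Figure D2:**
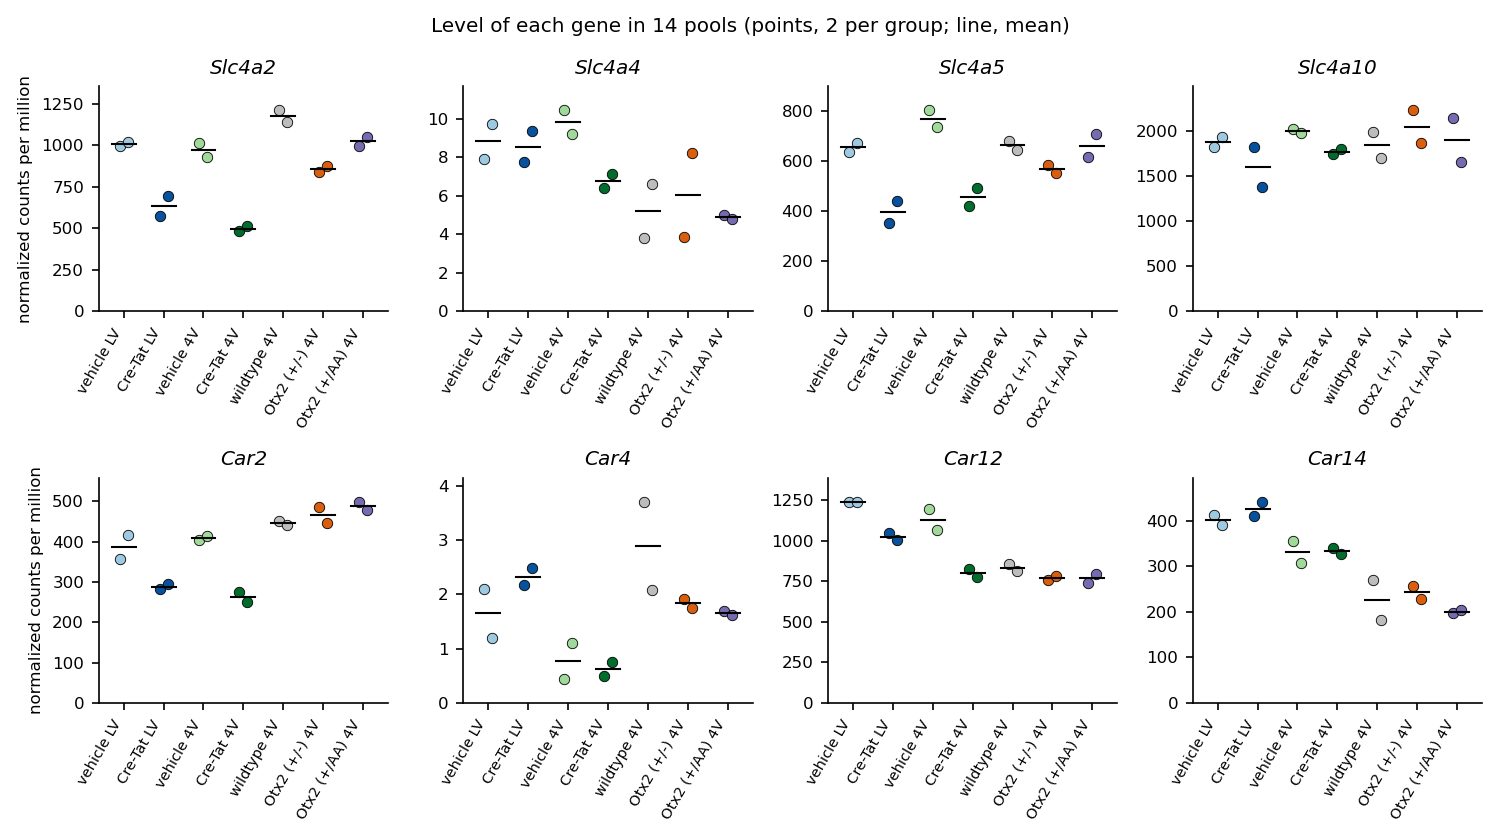
Normalized counts (CPM) of each of the 8 genes in the 14 pools, with 2 points and their mean for each group and axes from 0. Slc4a2 and Slc4a5 sit lower in both Cre-Tat groups than in the vehicle groups of the same ventricle, Car2 and Car12 do so by a smaller step, Slc4a10 is slightly lower in Cre-Tat pools of 4V ChP without passing the test, and the Car14 pools of 4V ChP overlap.

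Slc4a2 showed the largest difference of the 8 genes in 4V ChP. Its CPM was 1016 and 933 in the vehicle pools and 485 and 512 in the Cre-Tat pools of 4V ChP, and 996 and 1019 against 573 and 696 in LV ChP. Overlap of pools is given here and below as description only, since the smallest exact permutation p for so few pools is 0.333. The share of all genes with separated pools is not given. In both ventricles Slc4a2 was lower in every pool labelled Cre-Tat than in every vehicle pool. It fell by 48.7% in 4V ChP, with a log2 fold change of −0.96 (95% interval −1.28 to −0.65, adjusted p = 0.000340, edgeR quasi-likelihood test, Benjamini-Hochberg), and by 36.9% in LV ChP, with −0.66 (−1.02 to −0.31, adjusted p = 0.0433). For Slc4a2-205, a transcript that shares no base with Fastk and was chosen after the data were seen, the log2 fold change was −0.87 in 4V ChP and −0.66 in LV ChP. It is a short model of 776 bases annotated as a retained intron, whose reads can also count for Slc4a2-201, so it is not independent evidence. In that fit over all transcripts, adjusted p in LV ChP was 0.0379 for Slc4a2-205 and 0.0528 for Slc4a2-201 (edgeR quasi-likelihood test, Benjamini-Hochberg).

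Slc4a5, the cotransporter of the ventricular side, had 802 and 735 CPM in vehicle and 419 and 491 in Cre-Tat pools of 4V ChP. In LV ChP the values were 637 and 673 against 354 and 439. The groups were again apart in both ventricles. Slc4a5 fell by 40.7% in 4V ChP, with a log2 fold change of −0.75 (−1.07 to −0.44, adjusted p = 0.00305, edgeR quasi-likelihood test, Benjamini-Hochberg), and by 39.4% in LV ChP, with −0.72 (−1.08 to −0.36, adjusted p = 0.0311).

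The calls in LV ChP changed with the pool left out. Without Cre-Tat pool B of LV ChP both were kept, with log2 fold changes of −0.80 for Slc4a2 and −0.88 for Slc4a5 (adjusted p = 0.00321 and 0.00213, edgeR quasi-likelihood test, Benjamini-Hochberg). Without vehicle pool A, vehicle pool B or Cre-Tat pool A of LV ChP, none of the 8 genes passed: Slc4a2 then had adjusted p = 0.244, 0.266 and 0.0646 and Slc4a5 0.139, 0.217 and 0.0529 (edgeR quasi-likelihood test, Benjamini-Hochberg), with log2 fold changes of −0.69, −0.65 and −0.52 for Slc4a2 and −0.77, −0.68 and −0.56 for Slc4a5. With total counts in place of TMM scaling, neither passed in LV ChP (adjusted p = 0.117 and 0.0931, edgeR), while in 4V ChP both passed in every setting tried. With the files as attached, Slc4a2 passed in 4V ChP with the opposite sign (log2 0.37) and Slc4a5 with the same sign.

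Neither of the other SLC4 members passed the test. Slc4a10, the most abundant of the 8 genes, had 2022 and 1974 CPM in vehicle and 1741 and 1790 in Cre-Tat pools of 4V ChP, which did not overlap, but its log2 fold change of −0.17 (−0.52 to 0.17) did not pass the test. In LV ChP its Cre-Tat pools differed widely, at 1814 and 1376 against 1818 and 1928 in vehicle, with −0.23 (−0.61 to 0.15). Both intervals leave room for a fall of the size seen in Car12, so equal levels are not shown. Slc4a4 had 10.4 and 9.23 CPM in vehicle and 6.40 and 7.15 in Cre-Tat pools of 4V ChP, which did not overlap, but at 100 to 142 reads a pool its log2 fold change of −0.54 (−0.96 to −0.11) had an adjusted p of 0.110 (edgeR quasi-likelihood test, Benjamini-Hochberg). In LV ChP it had 7.93 and 9.75 CPM in vehicle and 7.75 and 9.36 in Cre-Tat pools, which overlapped.

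Car2, the cytosolic enzyme, had 404 and 415 CPM in vehicle and 274 and 250 in Cre-Tat pools of 4V ChP, so that the groups lay apart. It fell by 35.8%, with a log2 fold change of −0.64 (−0.93 to −0.34, adjusted p = 0.00574, edgeR quasi-likelihood test, Benjamini-Hochberg). In LV ChP it had 358 and 416 CPM in vehicle and 283 and 295 in Cre-Tat pools, also apart, but −0.42 (−0.77 to −0.07) had an adjusted p of 0.227.

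Car12 and Car14, the membrane enzymes with the active site outside the cell, were called in 1 comparison and in none. Car12 had 1191 and 1067 CPM in vehicle and 826 and 773 in Cre-Tat pools of 4V ChP, a fall of 0.49 on the log2 scale (−0.82 to −0.17, adjusted p = 0.0496, edgeR quasi-likelihood test, Benjamini-Hochberg). This call was at the threshold: without vehicle pool A, vehicle pool B or Cre-Tat pool B of 4V ChP, Car12 had adjusted p = 0.453, 0.126 and 0.113 and log2 fold changes of −0.40, −0.58 and −0.44, and with total counts 0.174 (edgeR quasi-likelihood test). In LV ChP its pools had 1238 and 1239 CPM in vehicle and 1044 and 1000 in Cre-Tat, with −0.27 (−0.61 to 0.06). Car14 had 356 and 307 CPM in vehicle and 339 and 327 in Cre-Tat pools of 4V ChP, where the Cre-Tat pools lie between the vehicle pools, and 413 and 389 against 410 and 442 in LV ChP. Its log2 fold changes were 0.01 (−0.29 to 0.31) and 0.09 (−0.25 to 0.43), and those of Car14-203, which shares no base with Aph1a, were 0.03 and 0.10. The interval in 4V ChP does not reach the fall of Slc4a2, Slc4a5 or Car2, but the difference between genes was not tested.

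Car4 was counted with 6 to 15 reads in pools of 4V ChP and 24 to 54 in LV ChP of this model, and its log2 fold changes of −0.26 (−1.50 to 0.99) and 0.49 (−0.34 to 1.33) leave a difference of either sign not detectable at this depth.

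**Figure D3:**
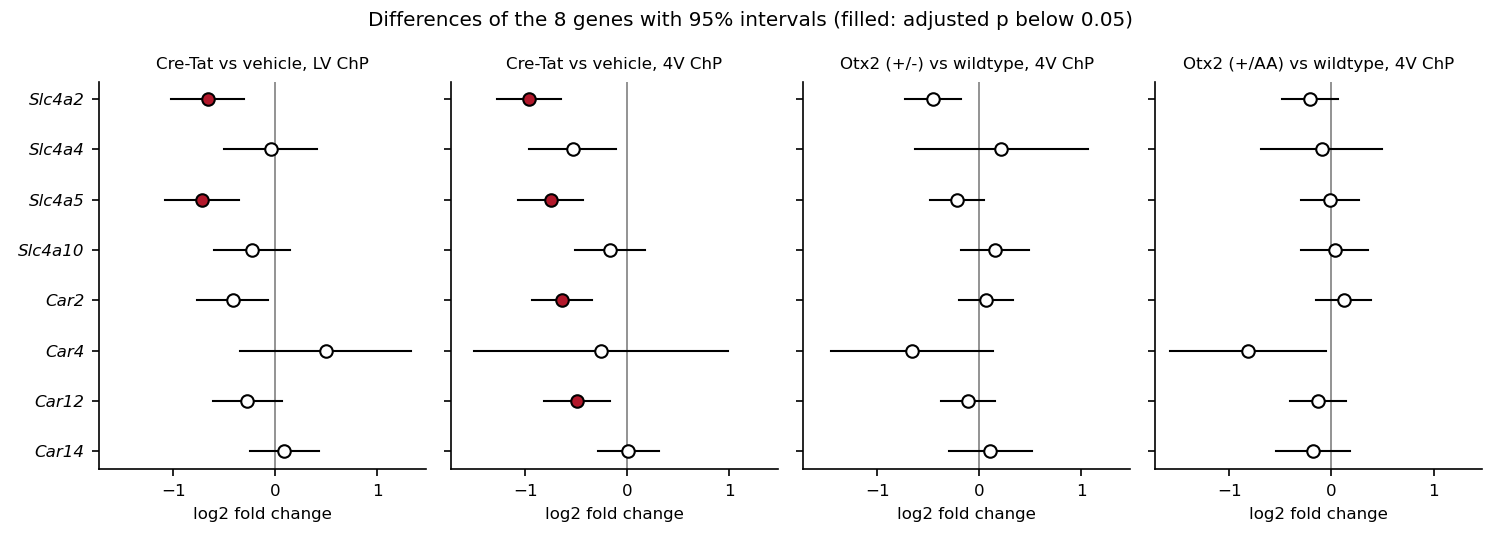
Log2 fold change of each of the 8 genes with its 95% interval in the comparisons of Cre-Tat with vehicle and of the constitutive alleles with wildtype, filled where the adjusted p (edgeR) was below 0.05. Filled points are Slc4a2 and Slc4a5 in LV ChP and Slc4a2, Slc4a5, Car2 and Car12 in 4V ChP, all left of 0.

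Whether the response to Cre-Tat differs between ventricles was tested by the interaction over 8 pools, and none of the 8 genes passed (edgeR, 0.00643% of 15552 genes called, 1 in number, with 415 genes at an unadjusted p under 0.05, and 6 called by DESeq2). For Slc4a2 the log2 fold change was 0.30 higher, that is less negative, in LV than in 4V ChP (−0.15 to 0.75), and for Slc4a5 the difference was 0.03 (−0.44 to 0.50). Calls made in 4V ChP and missed in LV ChP, as for Car2 with a difference of 0.22 (−0.20 to 0.65), are therefore not shown to differ between the ventricles. The study dissected LV and 4V ChP separately from the injected mice, so pools of LV and 4V ChP may share animals. This fit and the comparisons of ventricles below treat the pools as independent, and a call made in both ventricles may not be independent evidence.

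Markers of the ChP epithelium, the cells in which these transporters work, moved with them. Of 8 epithelial markers (Ttr, Folr1, Kl, Clic6, Kcne2, Prlr, Aqp1 and Htr2c), 8 were called lower in the Cre-Tat pools of 4V ChP, with a median log2 fold change of −0.97, and 3 were called lower in LV ChP (Kcne2, Aqp1 and Htr2c), with a median of −0.65. Summed over the list, their level was 146893 to 176017 CPM in vehicle and 65772 to 77682 in Cre-Tat pools of 4V ChP, and 185852 to 194849 against 100126 to 140389 in LV ChP. Ttr, which encodes transthyretin, makes up most of that sum, and without it the ranges were 7834 to 8202 and 3864 to 4661 in 4V ChP and 8236 to 9480 and 5486 to 5876 in LV ChP. No epithelial marker was at 0 in any pool. The study calls Ttr a known direct transcriptional target of OTX2 and lists Ttr and Aqp1 as lower in both of its models. Those are calls of the study's own test. In the tests used here Ttr was not called in LV ChP, and Aqp1 was not called in Otx2 (+/-) pools. Such markers can change with the knockdown itself and do not measure epithelial content alone. The part of the marker changes in the lower counts of Slc4a2, Slc4a5, Car2 and Car12 was not tested, and in bulk RNA fewer epithelial cells and less RNA per cell cannot be told apart. Car14 and Slc4a10 were measured in the same pools, and their values in 4V ChP are those given above.

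**Figure D4:**
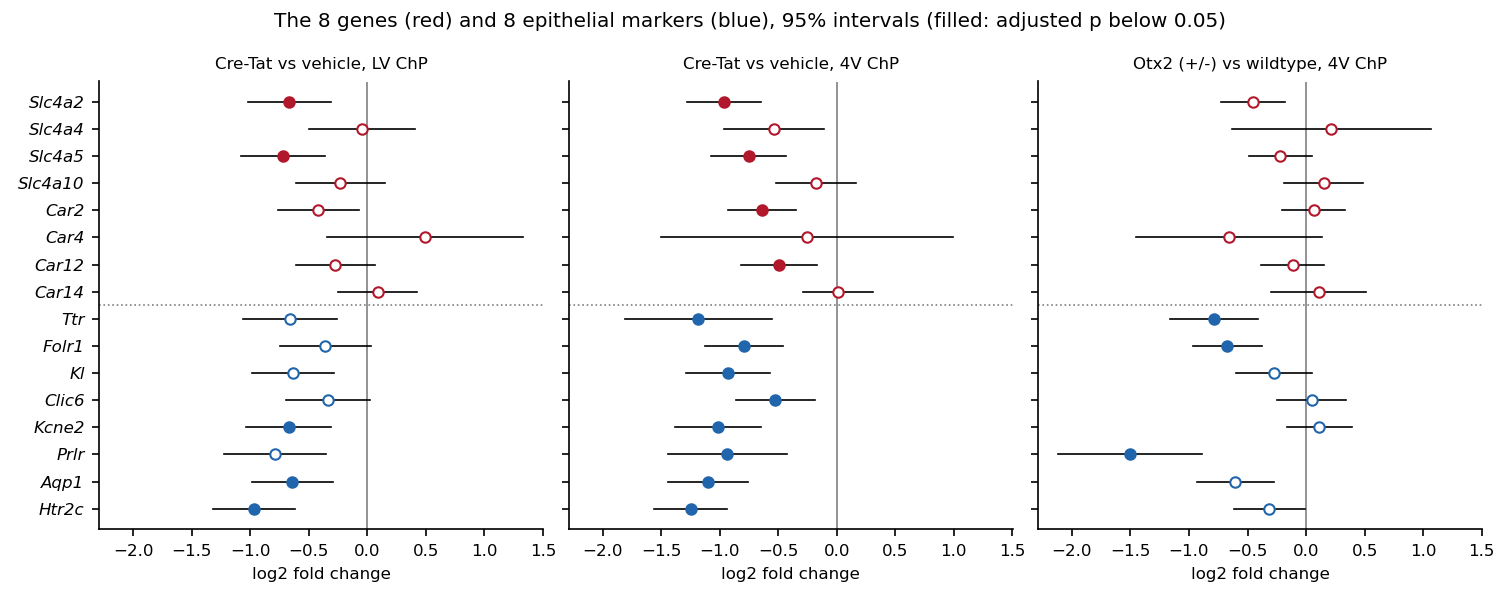
Log2 fold changes with 95% intervals of the 8 genes (red) and of 8 markers of the ChP epithelium (blue) in Cre-Tat against vehicle pools of LV and 4V ChP and in Otx2 (+/-) against wildtype pools, filled where the adjusted p was below 0.05. In 4V ChP all 8 markers are filled and left of 0, from −1.25 for Htr2c to −0.53 for Clic6, a range that holds Slc4a2, Slc4a5, Car2 and Slc4a4, the last of which did not pass the test.

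Markers of other cells also moved in the Cre-Tat comparisons. In 4V ChP, 3 of the 5 macrophage markers tested were called higher, 1 of 7 of endothelium higher, 1 of 2 of neurons lower, 1 of 4 of oligodendrocytes higher, 1 of 3 of ependyma higher, 2 of 4 of astrocytes higher and 1 lower, and 1 of 5 of fibroblasts in each direction. In LV ChP, none of 6 macrophage and none of 7 endothelial markers was called, while 2 of 6 of neurons, 1 of 5 of oligodendrocytes and 2 of 3 of ependyma were higher, 2 of 4 of astrocytes higher and 1 lower, and 1 of 5 of fibroblasts in each direction. Summed macrophage markers went from 30.1 to 31.3 CPM in vehicle to 45.5 to 57.7 in Cre-Tat pools of 4V ChP, and from 43.4 to 47.2 to 63.2 to 65.0 in LV ChP. Erythroid markers, which matter here because red cells are rich in carbonic anhydrases, were at most 9.13 CPM in sum in a pool, reached in Cre-Tat LV pool B, and none of the 5 passed the filter in these comparisons.

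In the constitutive model, none of the 8 genes passed the test in Otx2 (+/-) against wildtype, where 3.53% of 14561 genes were called (514 by edgeR, 634 by DESeq2, and 2697 at an unadjusted p under 0.05). Slc4a2 had the smallest p of the 8: its CPM was 1213 and 1143 in wildtype and 838 and 877 in Otx2 (+/-) pools, which lay apart, with a log2 fold change of −0.46 (−0.73 to −0.18) and an adjusted p of 0.0852 (edgeR quasi-likelihood test, Benjamini-Hochberg). It passed with DESeq2 (adjusted p = 0.0166). Slc4a5 had 681 and 644 CPM in wildtype and 583 and 552 in Otx2 (+/-) pools, also apart, with −0.22 (−0.49 to 0.05).

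None of the enzymes passed the test in the same pools. Car2 had 451 and 443 CPM in wildtype and 486 and 448 in Otx2 (+/-) pools, which overlapped, with a log2 fold change of 0.06 (−0.20 to 0.33). Car12 had 854 and 814 against 758 and 782, with −0.11 (−0.38 to 0.15), and Car14 had 269 and 182 against 257.03 and 228, with 0.11 (−0.30 to 0.51). Slc4a10, at 1984 and 1702 against 2225 and 1857, and Slc4a4, at 3.81 and 6.64 against 3.89 and 8.22, overlapped with wildtype, whereas Car4 had 3.71 and 2.08 against 1.92 and 1.75 CPM with −0.66 (−1.45 to 0.13). Of the epithelial markers, 3 of 8 were called lower in Otx2 (+/-) pools (Ttr, Folr1 and Prlr, median over the list −0.46), and the sum without Ttr was 7388 to 8032 CPM in wildtype and 5804 to 6517 in Otx2 (+/-) pools. The part of this in the values of Slc4a2 was not tested.

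The interaction of knockdown label and model asks whether the 4V responses to Cre-Tat and to the Otx2 (+/-) genotype differ. None of the 8 genes passed, with 1.61% of 15314 genes called (247 by edgeR, 372 by DESeq2, and 1983 at an unadjusted p under 0.05). For Car2 the log2 fold change was lower by −0.72 with Cre-Tat than in Otx2 (+/-) pools (−1.09 to −0.35, adjusted p = 0.0603, edgeR quasi-likelihood test, Benjamini-Hochberg). Car2 passed in DESeq2 (0.00119) and without the filter on low counts (0.0183). For Slc4a5 and Slc4a2 the differences were −0.55 (−0.94 to −0.15) and −0.52 (−0.90 to −0.14), with adjusted p = 0.199 and 0.201, and Slc4a2 passed in DESeq2 (0.0430). Strain, sequencing run and model go together in these samples, so that their parts in such differences cannot be told apart.

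In Otx2 (+/AA) against wildtype, none of the 8 genes passed, where 0.345% of 14482 genes were called (50 by edgeR, 115 by DESeq2, and 1289 at an unadjusted p under 0.05). Both constitutive comparisons share the wildtype pools. Slc4a2 had 999 and 1050 CPM in Otx2 (+/AA) pools, below both wildtype pools, with a log2 fold change of −0.21 (−0.48 to 0.06). Slc4a5 had 617 and 705 CPM, around the wildtype values, with −0.01 (−0.30 to 0.27). Car2, at 500 and 479 CPM, lay above both wildtype pools with 0.12 (−0.15 to 0.39), and Car12, at 739 and 796, below both with −0.13 (−0.40 to 0.14). Car14 had 197 and 204 CPM with −0.18 (−0.54 to 0.18), Slc4a10 had 2135 and 1651 with 0.03 (−0.30 to 0.36), and Slc4a4 had 5.02 and 4.80 with −0.10 (−0.69 to 0.50). Car4, with 36 and 31 reads against 71 and 37 in wildtype, had the widest difference, −0.82 (−1.58 to −0.06), at an adjusted p of 0.505 (edgeR quasi-likelihood test, Benjamini-Hochberg). Of the 8 epithelial markers none was called in Otx2 (+/AA) pools, with a median of −0.13 and a sum without Ttr of 6739 to 7378 CPM.

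Between the ventricles, the vehicle pools showed no called difference in the 8 genes, where 7.49% of 14548 genes were called (1090 by edgeR, 753 by DESeq2, and 3316 at an unadjusted p under 0.05). The log2 fold changes of LV over 4V ChP were 0.27 ± 0.13 (SE) for Car14 (adjusted p = 0.220, edgeR quasi-likelihood test, Benjamini-Hochberg), 0.13 for Car12 and 0.04 for Slc4a2, and −0.23 for Slc4a5, −0.10 for Slc4a10 and −0.09 for Car2. Pools of Car14, Slc4a5, Car12, Slc4a10 and Car4 did not overlap between the ventricles, while those of Slc4a2, Car2 and Slc4a4 did. That separation is description only: none of these genes passed the test, and the share of all genes with separated pools is not given. Car4 was at 2.10 and 1.19 CPM in LV against 0.444 and 1.11 in 4V ChP, with 1.13 (−0.05 to 2.30). Of the markers, Pecam1 and Plvap (2 of 7 of endothelium), Csf1r (macrophage), Mobp (oligodendrocyte), Slc1a2 (astrocyte) and Dcn (fibroblast) were called higher in LV ChP. Aldh1l1 (astrocyte) was called lower, and none of the 8 epithelial markers was called. Summed endothelial markers were 206 to 248 CPM in LV and 140 to 159 in 4V ChP. Their part in the Car4 value was not tested.

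In the Cre-Tat pools, Car4 was the only one of the 8 genes called between ventricles, where 5.87% of 15099 genes were called. It had 54 reads in each pool of LV ChP against 9 and 15 in 4V ChP, that is 2.17 and 2.48 against 0.488 and 0.756 CPM, a fold of 3.69 (log2 1.88, 0.94 to 2.83, adjusted p = 0.0170, edgeR quasi-likelihood test, Benjamini-Hochberg). The call was lost without Cre-Tat pool A of 4V ChP (log2 1.61, adjusted p = 0.119) and in DESeq2 (0.0627). Car4 is known on capillary endothelium as well as on epithelia. In the same comparison 3 of 7 endothelial markers were higher in LV ChP (Pecam1, Plvap and Flt1), and their sum was 245 to 274 CPM in LV against 137 to 164 in 4V ChP, and markers of neurons (3 of 6 tested) and oligodendrocytes (2 of 5) were higher too. Of the 8 epithelial markers 1 was called, Folr1, which was higher in LV ChP, and the median over the list was 0.52, with a sum without Ttr of 5486 to 5876 CPM in LV and 3864 to 4661 in 4V ChP. Of the macrophage markers 1 of 5 tested was higher (Cx3cr1), and of the 4 astrocyte markers 1 was higher (Slc1a2) and 1 lower (Aldh1l1). The part of these in the Car4 value was not tested. The interaction of treatment and ventricle did not pass for Car4 (log2 0.76, −0.79 to 2.30), so its ventricle difference is not shown to be particular to the Cre-Tat pools. Both ventricle comparisons share pools with the comparisons of Cre-Tat and vehicle.

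Other genes of bicarbonate transport were read from 4 lists that hold 39 genes. Most were low: of the 6 other SLC4 genes the highest medians over the 14 pools were 3.33 CPM per kilobase for Slc4a3, 3.29 for Slc4a8 and 3.19 for Slc4a7, and of the 12 other carbonic anhydrase genes 13.0 for Car10, 7.01 for Car13 and 3.63 for Car11. The highest SLC26 anion exchangers were Slc26a2 (4.82), Slc26a7 (4.20) and Slc26a11 (1.58). Among regulators, the kinase Stk39 (254) and Ahcyl2 (241), a binding partner that activates sodium bicarbonate cotransporters, stood at the level of Slc4a2 (231) and Car2 (232), with Ahcyl1 next (33.2).

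In the Cre-Tat comparisons the listed genes called lower were the same 2 in both ventricles. Slc26a7, an anion exchanger and chloride channel, had 74.5 and 78.6 CPM in vehicle and 27.9 and 21.2 in Cre-Tat pools of LV ChP, and 54.9 and 56.9 against 18.1 and 17.6 in 4V ChP, each a log2 fold change of −1.64 (adjusted p = 0.000132 and 4.61e-07, edgeR quasi-likelihood test, Benjamini-Hochberg). Stk39, which phosphorylates cation-chloride cotransporters of this epithelium, went from 905 and 889 to 590 and 516 CPM in LV ChP (log2 −0.70) and from 950.5 and 946 to 540 and 514 in 4V ChP (−0.84). Their lists gave 1 of 5 SLC26 genes tested and 1 of 9 regulators tested in each ventricle.

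Of the other lists in 4V ChP, none of 4 other SLC4 genes tested was called and 1 of 6 carbonic anhydrase genes was higher, Car10. Car10, a carbonic anhydrase-related protein without enzyme activity, had 19.8 and 15.6 CPM in vehicle and 32.2 and 35.6 in Cre-Tat pools (log2 0.93, adjusted p = 0.000892, edgeR quasi-likelihood test, Benjamini-Hochberg). In LV ChP none of 4 SLC4 and 6 carbonic anhydrase genes was called.

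In Otx2 (+/-) pools, 1 of 6 SLC26 genes tested was lower, Slc26a7, at 13.9 and 10.6 against 35.3 and 22.2 CPM in wildtype (log2 −1.23, adjusted p = 0.0269, edgeR quasi-likelihood test, Benjamini-Hochberg). Slc4a8, a sodium-driven chloride bicarbonate exchanger, was 1 of 4 SLC4 genes and higher, at 36.1 and 26.4 against 17.0 and 17.9 CPM (0.84). Car3, a cytosolic enzyme of low activity abundant in muscle and fat, was 1 of 7 carbonic anhydrase genes and higher, at 4.54 and 4.47 against 1.41 and 1.74 CPM (1.52), and none of 9 regulators was called. None of these lists had a gene called in Otx2 (+/AA) pools, among 4 SLC4, 8 carbonic anhydrase and 6 SLC26 genes and 9 regulators tested. Car3 had 3.28 and 5.32 CPM in Otx2 (+/AA) pools, above both wildtype pools, and Slc26a7 17.7 and 13.1, below both. Slc4a8 had 14.7 and 18.5 CPM, around the wildtype values. The difference between the Otx2 (+/-) and Otx2 (+/AA) pools was not tested.

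Between ventricles in the vehicle pools, 1 of 4 other SLC4 genes, the chloride-bicarbonate exchanger Slc4a3, was lower in LV than in 4V ChP (log2 −0.75), and of 6 carbonic anhydrase genes the mitochondrial Car5b (0.57) and Car10 (1.02) were higher and the cytosolic Car13 (−0.59) lower. Slc26a7 was higher in LV ChP (0.45, 1 of 5) and the scaffold protein gene Slc9a3r1 lower (−0.75, 1 of 9). In the Cre-Tat pools, Car5b (0.68) and Car8 (1.51), a protein related to the enzymes but without activity, were higher in LV ChP, Slc9a3r1 (−0.83) was lower, and none of 4 SLC4 and 6 SLC26 genes was called.

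Across the 14 pools, with log2 CPM centred within each sequencing run, the genes most like each member by Pearson's r were Myh7 and Fkbp9 for Slc4a2 (both 0.96), Slc5a6 (0.96) and Emb (0.95) for Slc4a5, Xpo1 (0.96) and Csgalnact2 (0.95) for Slc4a10, and Gja1 (0.87) and Ghdc (0.81) for Slc4a4. For the enzymes they were Tbc1d9 and Sv2a (both 0.94) for Car2, Slc39a12 (0.96) and Mfge8 (0.95) for Car12, Slc35b1 (0.91) and Pgf (0.87) for Car14, and Slc43a3 (0.89) and Cacna1h (0.87) for Car4. These are descriptions of 14 points that share libraries, groups and depth, and no p is given.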

How the data were processed

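RNA sequencing of 14 pools was analysed from 22 deposited files. Per the labels, libraries were made strand-specifically after depletion of ribosomal RNA and read as 50 bases, while the study's methods describe PolyA+ RNA. The authors deposited raw counts of reads per Ensembl transcript, without normalization, and their processing notes name bcl2fastq 1.8.4, Bowtie 0.12.9, SAMtools, HTSeq 0.5.3 and DESeq 1.8.3 with build mm10. The counting strand and annotation release are not given in the sources used here.

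Of 95533 transcripts, 82807 matched GENCODE vM21, with 88.2% to 90.3% of the counts of a pool. The 2 technical runs of a pool were summed, and each gene was represented by the transcript of it with the highest total count. Files of the conditional model were joined to pools by library number. The 8 members and the gene lists were chosen with earlier results of these data known. Genes named beside the members are those of the pathway lists past the threshold in at least 1 comparison or among the 3 highest per kilobase in their list, the marker lists and the 2 genes most like each member. Some listed genes are not reported here.

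Each comparison was fitted in edgeR 4.0.16 under R 4.3.3 (filterByExpr with a minimum count of 10, TMM, quasi-likelihood test, Benjamini-Hochberg adjustment over all genes tested, threshold 0.05), with only the groups compared in a fit. Intervals are 95% intervals of the log2 fold change. With 2 pools a group, the smallest exact permutation p is 0.333. The labels call the pools biological replicates. The quasi-likelihood test takes the spread of a gene partly from the other genes of the fit, so p-values and intervals do not rest on its own pools alone. CPM are counts scaled to TMM-normalized library size over the 14 pools, and likeness used log2(CPM + 0.5) of genes with a mean of at least 100 counts a pool. Depth sets counting error alone, and the spread between 2 pools limits the precision. Alternatives were each pool left out, DESeq2 1.42.0, its size factors in edgeR, scaling by total counts, a block for the pool letter, no filter or one on mean counts over 10, 1 fit per sequencing run, summed transcripts, the files as attached and, added after seeing the data, transcripts free of other genes. The procedure was tested on simulated data. Python 3.11.15, NumPy 2.4.6, pandas 2.3.3 and, for figures, Matplotlib 3.10.9 were used. Promoter windows are from RefSeq, build GRCm38.p6.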

Additional observations from a re-analysis of the deposited data

Results flagged for a closer look

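Among the listed genes of the pathway, Car10 was the only one whose response differed between the models by the interaction test. Its log2 fold change was 1.19 higher with Cre-Tat than in Otx2 (+/-) pools of 4V ChP (95% interval 0.73 to 1.64, adjusted p = 0.0137, edgeR quasi-likelihood test, Benjamini-Hochberg). Car10 had 19.8 and 15.6 CPM in vehicle and 32.2 and 35.6 in Cre-Tat pools, and 64.8 and 78.2 CPM in wildtype and 56.1 and 62.9 in Otx2 (+/-) pools. The control groups of the models thus differed in level. Strain, sequencing run and model go together here too, so their parts cannot be told apart. This call was not examined under the alternative settings. None of the 8 bicarbonate transporters and carbonic anhydrases described above differed by the interaction tests in edgeR with the main settings. Without the filter on low counts Car2 passed in the model interaction, as given above.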

How the results depend on the processing

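Leaving out the files as attached, 778 results of single genes under an alternative kept their sign and their side of the threshold, 16 lost a call, 7 gained a call and 35, none of them called, changed sign, with reported log2 sizes up to 0.39 and up to 0.48 under the alternative. The number of the 8 genes called, which was 2 in LV ChP, 4 in 4V ChP, 1 between ventricles with Cre-Tat and 0 in the other comparisons, became 0 in LV ChP and 1 between ventricles with vehicle (Slc4a5, log2 −0.43) with total counts, 1 in the Otx2 (+/-) comparison, 0 between ventricles with Cre-Tat and 2 in the model interaction with DESeq2, and 1 in the model interaction without the filter. Over the fits without each pool in turn it was 0 to 2 in LV ChP, 3 to 4 in 4V ChP and 0 to 1 between ventricles with Cre-Tat. DESeq2 size factors took Car12 in 4V ChP to an adjusted p of 0.0502. The causes were not tested.

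Pools of the same letter deviated together weakly (r from −0.13 to 0.36), and the letters are not stated to mark shared animals or days. With the letter as a replicate block, 1 of the 8 genes was called in LV ChP (Slc4a5), 5 in 4V ChP (with Slc4a4, adjusted p = 0.0335) and 1 in the Otx2 (+/-) comparison (Slc4a2, 0.00303), and Slc4a2 in LV ChP had 0.0537. Over all genes the block called 3117 in 4V ChP (main 1554), 2522 in Otx2 (+/-) pools (514), 547 in Otx2 (+/AA) pools (50), 2277 between ventricles with vehicle (1090) and 2 in the ventricle interaction (1).

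Total counts shifted the median over all genes, on the log2 scale, by 0.17 in LV ChP, 0.14 in 4V ChP, 0.12 in Otx2 (+/AA) pools and in the model interaction, and −0.19 and −0.17 between ventricles with vehicle and with Cre-Tat, and the share of calls that were higher from 68.1% to 89.2%, 53.3% to 75.6%, 50.0% to 73.7%, 48.6% to 64.1%, 46.6% to 17.1% and 50.9% to 24.1%, with 1539 against 886 calls in the last. In LV ChP that share was 55.7% with DESeq2. Without the filter 872 genes were called in LV ChP (486), 390 in Otx2 (+/AA) pools (50), 1838 and 1349 between ventricles with vehicle (1090) and Cre-Tat (886), 31 in the ventricle (1) and 626 in the model interaction (247). In Otx2 (+/AA) pools, DESeq2 called 115 genes, 1 fit per run 18 and summed transcripts 22 (50), and 1 fit per run 715 between ventricles with vehicle (1090). DESeq2 called 6 in the ventricle (1) and 372 in the model interaction (247). Without each pool in turn, where a lone pool was assumed to vary like the other groups, called genes numbered 325 to 736 in LV ChP, 890 to 1666 in 4V ChP, 402 to 880 in Otx2 (+/-) and 35 to 374 in Otx2 (+/AA) pools, and 408 to 1969 and 442 to 1496 between ventricles with vehicle and Cre-Tat, 0 to 3 in the ventricle and 80 to 246 in the model interaction.

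With the files as attached, where runs of different pools were summed, 6 of the 8 genes were called in LV ChP, 8 in 4V ChP, 4 and 6 between ventricles with vehicle and Cre-Tat, 6 in the ventricle and 3 in the model interaction, out of 4681 to 8741 called genes. Log2 values then had the opposite sign in 20 results called either as reported or as attached, which are given here, and in 10 called in neither. For Cre-Tat against vehicle in LV ChP they were 0.11 for Slc4a2 and 0.21 for Car12. For Cre-Tat against vehicle in 4V ChP they were 0.37 for Slc4a2, 0.28 for Slc4a4, 0.20 for Car2, 1.08 for Car4 and 0.35 for Car12. For LV against 4V ChP with vehicle it was 0.10 for Car2. For LV against 4V ChP with Cre-Tat they were −0.15 for Slc4a2, −0.28 for Slc4a4, 0.15 for Slc4a10 and −0.15 for Car2. In the ventricle interaction they were −0.26 for Slc4a2, −0.20 for Slc4a5, 0.14 for Slc4a10, −0.25 for Car2, −0.14 for Car12 and −0.13 for Car14. In the model interaction they were 0.81 for Slc4a2 and 0.45 for Car12. Depth limits Car4 (6 to 71 reads a pool) and Slc4a4 (73 to 204).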
